A study of Sus scrofa with 16 samples.

Results

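Cell cycle and DNA replication genes were followed in liver of 16 pigs (Sus scrofa) from 2 lines, through a list of 54 symbols for 53 genes, of which CDK1 was listed under 2 symbols. Probes were taken where the symbol stood in the gene name or description of the array files (39 probes, 20 genes). A further 15 probes were matched through RefSeq tables and added 7 genes, and 5 probes whose descriptions spell the protein name out added MCM4, MCM5 and CCNE1. In all, 59 probes for 30 genes were found, of 43603 probes on the array and 5252 symbols. The other 23 listed genes are not analysed here, namely CDC6, CDT1, GMNN, CCNE2, MCM2, MCM7, RRM1, RRM2, TYMS and TK1 of DNA replication, CCND1 of G1, and CCNA2, CCNB3, CDC25B, FOXM1, BUB1, BUB1B, MAD2L1, TTK, CENPA, CENPE, NUSAP1 and UBE2C of mitosis. Of the 59 probes, 55 were tested, being well above background in 8 or more of the 16 pigs. The 4 untested probes belong to CCNB2, KIF20A, TPX2 and CDC45, each of which kept another probe. Each of 27 genes was represented by its brightest tested probe, which left 6 genes of DNA replication, 15 of mitosis, 3 of the G1 phase and 3 inhibitors. The 5 spelled-out probes represent no gene and are given by their values alone.

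The low-RFI line, labelled RFIneg, and the high-RFI line, labelled RFIpl, were each sampled in 8 pigs. RFI is residual feed intake, the feed an animal eats beyond what its growth and maintenance predict. All pigs weighed 20 kg and were fed ad libitum, and total RNA was taken from frozen liver with Trizol and hybridised with Cy3 to an Agilent porcine array, 1 array per pig. The comparison asks how the lines differ in liver transcripts, and what selection did to them cannot be told apart from other ways in which the lines differ. A level is the log2 signal of a probe minus the 75th percentile of its array, and a difference is low-RFI minus high-RFI on that log2 scale.

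Dividing cells pass from G1, where D-type cyclins with CDK4 release the E2F factors, into S phase, where cyclin E with CDK2 and the loaded MCM helicase start DNA replication. Cyclin B with CDK1 then drives mitosis, the Aurora and Polo-like kinases build the spindle, and the anaphase-promoting complex with CDC20 ends it by destroying securin and cyclin B. Most hepatocytes of a grown liver are out of the cycle, while in young animals the liver still grows, and immune, endothelial and other non-parenchymal cells can divide too. In whole liver, fewer cells of a type and less RNA per cell cannot be told apart.

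The arrays had 28576 to 34977 probes well above background and sat on 4 slides, each with 2 pigs of either line. The highest count was that of high-RFI pig 6, and the next highest was 31808, of high-RFI pig 1. No 2 arrays were identical, with correlations of 0.959 to 0.988 over tested probes. ALB, the hepatocyte product albumin, stood at 9.32 ± 0.13 in the low-RFI and 9.29 ± 0.21 in the high-RFI line (SD, n = 8 each) and was bright on every array. The labels give no litter or sex, so the p-values measure only the spread between these pigs. Precision is limited by the number of arrays, and the median SE over the 4421 tested genes was 0.16.

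None of the 27 genes passed limma's test at an adjusted p under 0.05, where 3 of 30097 probes (0.00997%) and 0 of 4421 genes (0%) did. At an unadjusted p under 0.05 in limma, BIRC5 was higher and KIF20A lower in low-RFI liver, against backgrounds of 2.62% of all tested genes higher and 2.38% lower. In direction, 21 of the 27 genes were higher in low-RFI liver, against 54.7% of all tested genes. The median difference of the 27 was +0.24, against +0.02 over all 4421 genes. The mitosis genes held most of this shift: 13 of 15 were higher, with a median of +0.47, while 4 of the 6 DNA replication genes were higher, with a median of +0.04. Levels of the lines overlapped for each of the 27 genes, as for nearly all probes tested (13 probes, 0.0432%, did not overlap). These lists move together from pig to pig and count as few independent observations, so the counts are a description.

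**Figure D1:**
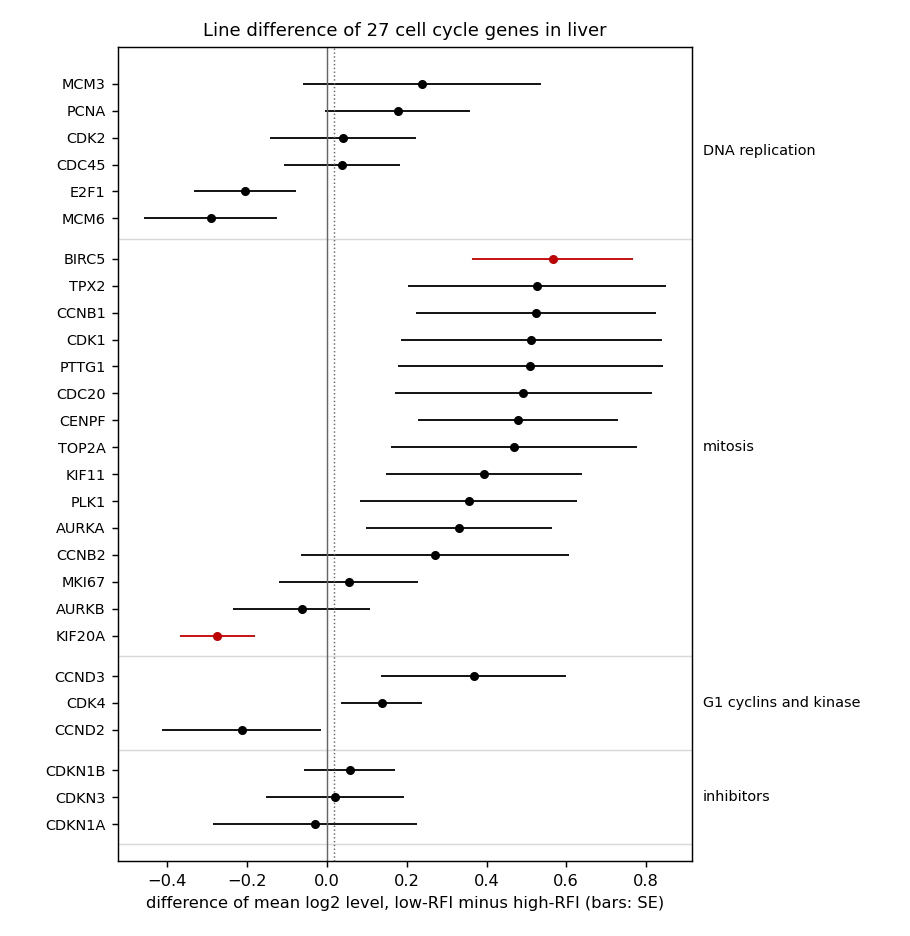
Difference of mean log2 level, low-RFI minus high-RFI, of the 27 tested genes, with bars of 1 SE; the dotted line is the median of all tested genes, and red marks an unadjusted p under 0.05. Most mitosis genes lie between +0.27 and +0.57 with wide bars, MKI67, AURKB and KIF20A lie at or below +0.05, and the DNA replication genes lie on both sides of 0.

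Of the factors that open S phase, E2F1, the transcription factor that switches on replication genes, ran from −1.02 to −0.75 with a median of −0.80 in low-RFI pigs, and from −1.10 to −0.25 with a median of −0.61 in high-RFI pigs. All 8 low-RFI pigs lay close together, while the high-RFI pigs spread over more than the whole low-RFI range. The difference was −0.21 (SE 0.128, limma adjusted p = 0.976). CDK2, the kinase that fires replication origins, was at 1.17 ± 0.43 in the low-RFI and 1.13 ± 0.33 in the high-RFI line, and its 6 probes gave differences of −0.17 to +0.06. The probe described as cyclin E1, the partner of CDK2, was at −4.11 ± 0.22 in the low-RFI and −3.97 ± 0.47 in the high-RFI line (SD, n = 8 each).

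The MCM subunits form the ring that unwinds DNA ahead of the fork. MCM6 ranged from −2.39 to −1.41 with a median of −2.17 in low-RFI pigs, and from −2.42 to −1.31 with a median of −1.83 in high-RFI pigs, a difference of −0.29 (SE 0.166, limma adjusted p = 0.967). Its lowest value belonged to a high-RFI pig, so the ranges nearly coincide in spite of the lower low-RFI median. MCM3 ranged from −3.64 to −1.70 with a median of −2.77 in low-RFI pigs and from −3.70 to −2.26 with a median of −2.96 in high-RFI pigs, and differed by +0.24 (SE 0.298). The spelled-out probes of MCM4 and MCM5 differed by +0.11 (SE 0.300) and +0.12 (SE 0.292). Thus the subunits of the same ring had differences of both signs, each smaller than the spread between pigs.

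CDC45, which joins the MCM ring to make the active helicase, was at 0.51 ± 0.34 in the low-RFI and 0.47 ± 0.24 in the high-RFI line. Its other tested probe, which shares 50 of its 60 bases, gave +0.02 against +0.04 for the first, and its dimmest probe was not well above background on enough arrays to be tested. PCNA, the sliding clamp of the replicating polymerases, was at −0.96 ± 0.44 in the low-RFI and −1.14 ± 0.31 in the high-RFI line, a difference of +0.18 (SE 0.182). The 95% interval was −0.27 to 0.35 for CDC45 and −0.21 to 0.56 for PCNA, and neither gene passed limma's test.

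At the entry into mitosis, CDK1 is the kinase and cyclin B its partner. CDK1 stood at −1.65, −0.39, −1.44, 0.15, −0.25, 0.33, −0.68 and 0.09 in low-RFI pigs 1 to 8, against −1.56, −1.89, −0.25, −0.72, 0.14, −1.51, −0.98 and −1.18 in high-RFI pigs 1 to 8. Low-RFI pigs 1 and 3 were as low as the lower high-RFI pigs, and high-RFI pigs 3 and 5 reached the level of the higher low-RFI pigs. The means were −0.48 ± 0.73 in the low-RFI and −0.99 ± 0.69 in the high-RFI line (SD, n = 8 each), a 1.43-fold difference that did not pass (+0.51, SE 0.327, 95% interval −0.18 to 1.20, limma adjusted p = 0.977). The second CDK1 probe gave +0.60 (SE 0.334). The 60-base sequence shown is that of this second probe and is open in 1 forward reading frame. The pig-to-pig pattern described below is anchored on the first CDK1 probe, which the second followed with r = 0.992.
CDK1 A_72_P440916: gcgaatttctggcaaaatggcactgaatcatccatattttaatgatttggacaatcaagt

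CCNB1, cyclin B1, ranged from −1.89 to −0.08 with a median of −0.64 in low-RFI pigs and from −1.96 to −0.13 with a median of −1.46 in high-RFI pigs. The ranges are nearly the same, and the medians lie far apart because most high-RFI pigs are near the low end. The difference was +0.52 (SE 0.300, limma adjusted p = 0.967). CCNB2, cyclin B2, was a dim probe, well above background in all 8 pigs of the low-RFI line and 7 of the high-RFI line, and differed by +0.27 (SE 0.336). PLK1, the Polo-like kinase that activates CDK1 and matures the centrosomes, was at −3.65 ± 0.56 in the low-RFI and −4.00 ± 0.62 in the high-RFI line, a difference of +0.35 (SE 0.273).

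**Figure D2:**
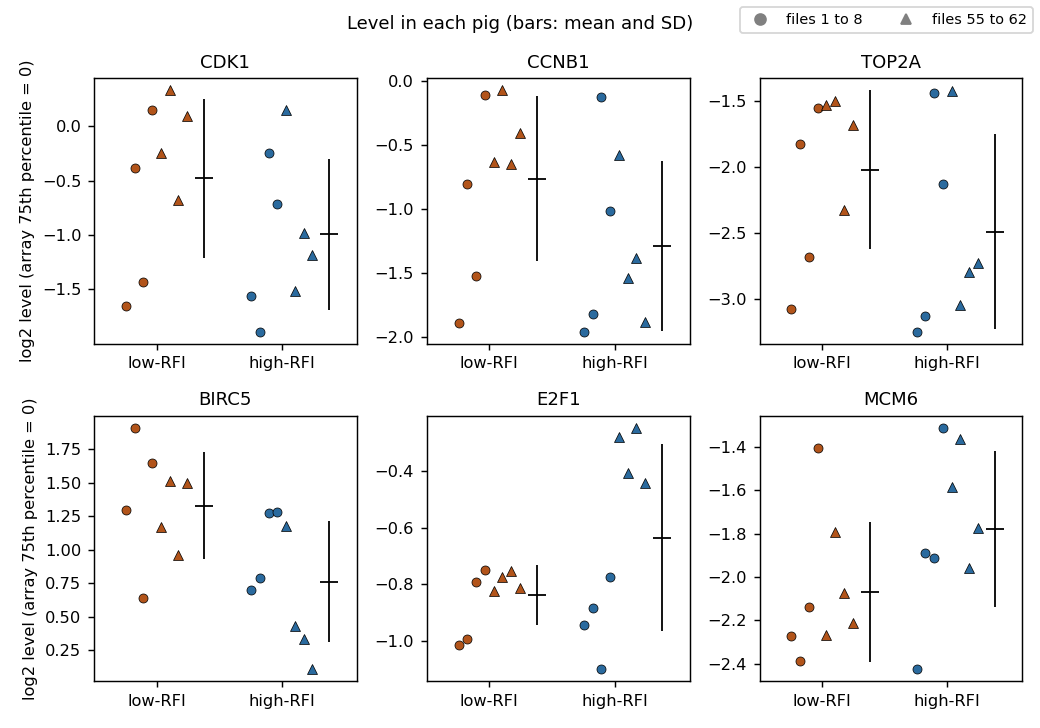
Log2 level of 6 genes in each pig, low-RFI left and high-RFI right, with the mean and SD; circles are pigs of file numbers 1 to 8 and triangles of 55 to 62. CDK1, CCNB1 and TOP2A run over the same range in both lines, BIRC5 is the gene with the least overlap of these, and the high-RFI pigs of E2F1 split by file number.

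AURKA, the Aurora kinase of the centrosomes, ranged from −2.21 to −0.71 with a median of −1.0 in low-RFI pigs and from −1.98 to −0.75 with a median of −1.68 in high-RFI pigs. Its 3 probes gave differences of +0.33, +0.20 and +0.21, with SEs of 0.234, 0.153 and 0.375. The sequences of the last pair are shown because they overlap by 27 bases, in capitals, and so are not separate measurements of the gene.
AURKA A_72_P477497: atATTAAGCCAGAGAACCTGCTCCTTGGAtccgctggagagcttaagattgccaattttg
AURKA A_72_P078066: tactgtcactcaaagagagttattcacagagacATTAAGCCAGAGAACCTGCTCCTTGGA

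TPX2, which activates AURKA on spindle microtubules, ranged from −1.87 to 0.04 with a median of −0.67 in low-RFI pigs and from −2.15 to −0.22 with a median of −1.63 in high-RFI pigs. The difference was +0.53 (SE 0.323, limma adjusted p = 0.973) with this probe and +0.18 (SE 0.166) with the second. TOP2A, the topoisomerase that untangles sister chromatids, ranged from −3.07 to −1.5 with a median of −1.76 in low-RFI pigs and from −3.24 to −1.43 with a median of −2.76 in high-RFI pigs. As for CCNB1, the lines shared the range and differed in where most pigs lay, with a difference of +0.47 (SE 0.308). KIF11, the motor that pushes the spindle poles apart, was well above background in all 8 pigs of the low-RFI line and 5 of the high-RFI line and differed by +0.39 (SE 0.245).

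KIF20A, a kinesin of the central spindle in cytokinesis, ran the other way. Its tested probe was between −1.87 and −1.51 with a median of −1.69 in low-RFI pigs and between −1.59 and −1.22 with a median of −1.40 in high-RFI pigs. The ranges overlapped from −1.59 to −1.51, where several pigs of each line lay, and the difference was −0.28 (SE 0.094, unadjusted p = 0.00937, adjusted p = 0.672 in limma). The files describe this probe by a partial match to dog KIF20A that covers only a small share of it, and the other KIF20A probe was well above background in 0 low-RFI pigs and 1 high-RFI pig. The gene behind the tested probe is therefore uncertain. With a pooled SD between pigs of 0.15 it was among the steadier probes, in contrast to the rest of the mitosis genes.

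BIRC5, survivin, belongs with AURKB to the chromosomal passenger complex that corrects chromosome attachment. It ranged from 0.64 to 1.91 with a median of 1.39 in low-RFI pigs and from 0.11 to 1.28 with a median of 0.75 in high-RFI pigs. Of the low-RFI pigs, 7 of 8 lay above the high-RFI mean. The 1.48-fold difference was +0.57 (SE 0.202, unadjusted p = 0.0122, adjusted p = 0.708 in limma), and the second probe gave +0.56 (SE 0.201). AURKB did not share this difference: its brightest probe was at 1.63 ± 0.41 in the low-RFI and 1.70 ± 0.29 in the high-RFI line (SD, n = 8 each), a difference of −0.06 (SE 0.172), while the others gave +0.22 (SE 0.244) and +0.18 (SE 0.386). The brightest AURKB probe holds the letters AATAAA and ends in 6 A, which the other AURKB probes do not. The dimmest AURKB probe is shown because it followed CDK1 from pig to pig, as did the second probe but not the brightest, as described below. Each AURKB probe is open in 1 forward frame.
AURKB A_72_P745159: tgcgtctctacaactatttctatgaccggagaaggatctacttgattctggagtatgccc

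CENPF, an outer kinetochore protein, ranged from −1.80 to −0.66 with a median of −1.11 in low-RFI pigs and from −2.56 to −0.72 with a median of −1.55 in high-RFI pigs. No low-RFI pig was as low as high-RFI pigs 1, 2 and 8, while low-RFI pig 3, the lowest of its line, lay below the other high-RFI pigs. The difference was +0.48 (SE 0.25, limma adjusted p = 0.955), and 2 more probes, of which the last is named by its spelled-out description, gave +0.32 (SE 0.227) and +0.39 (SE 0.303). The 3 probes are shown because no pair of them shares an overlap, and each is open in 2 forward frames. Where they lie on the transcript was not examined.
CENPF A_72_P145851: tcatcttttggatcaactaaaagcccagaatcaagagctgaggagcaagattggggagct
CENPF A_72_P151206: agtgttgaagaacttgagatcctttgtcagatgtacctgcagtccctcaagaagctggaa
CENPF A_72_P409233: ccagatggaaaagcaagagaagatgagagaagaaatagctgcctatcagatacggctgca

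Of the genes that end mitosis, CDC20, the activator of the anaphase-promoting complex, ranged from −4.82 to −2.49 with a median of −3.20 in low-RFI pigs and from −4.72 to −2.93 with a median of −3.81 in high-RFI pigs. PTTG1, securin, which holds separase in check, ranged from −1.38 to 0.97 with a median of 0.16 in low-RFI pigs and from −1.17 to 0.52 with a median of −0.73 in high-RFI pigs. For both genes the lowest pig of all was a low-RFI pig, number 1. The differences were +0.49 (SE 0.322) for CDC20 and +0.51 (SE 0.333) for PTTG1, with a limma adjusted p of 0.977 each. MKI67, which encodes the Ki-67 protein that coats mitotic chromosomes and is widely used to mark cycling cells, was at 3.22 ± 0.45 in the low-RFI and 3.17 ± 0.24 in the high-RFI line (SD, n = 8 each). Its difference was +0.05 (SE 0.175), and −0.03 (SE 0.192) with the second probe.

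In G1, the D cyclins activate CDK4. CCND3, cyclin D3, was at −1.92 ± 0.62 in the low-RFI and −2.29 ± 0.32 in the high-RFI line, a difference of +0.37 (SE 0.231), and low-RFI pig 2 at −0.62 was the highest of all. CCND2, cyclin D2, was at 1.97 ± 0.45 in the low-RFI and 2.18 ± 0.39 in the high-RFI line, a difference of −0.21 (SE 0.200). CDK4 was at 2.90 ± 0.14 in the low-RFI and 2.76 ± 0.20 in the high-RFI line (SD, n = 8 each), a difference of +0.14 (SE 0.101). The G1 genes thus had both signs, with a median of +0.14, and none passed.

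Among the inhibitors, CDKN1A, the p53 target p21 that blocks CDK2, ranged from 3.1 to 5.28 with a median of 4.05 in low-RFI pigs and from 3.72 to 4.83 with a median of 4.11 in high-RFI pigs. The high-RFI range lay within the low-RFI range, and the difference was −0.03 (SE 0.256). CDKN1B, p27, was at 1.66 ± 0.27 in the low-RFI and 1.6 ± 0.12 in the high-RFI line, and differed by +0.06 (SE 0.114). CDKN3, a phosphatase that acts on CDK2 and CDK1, was at 2.22 ± 0.43 in the low-RFI and 2.20 ± 0.26 in the high-RFI line (SD, n = 8 each), and its 5 probes gave differences of 0.00 to +0.22. The inhibitors had a median of +0.02, close to that of all genes.

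Most mitosis genes spread widely between pigs of the same line. The pooled SD within lines had a median of 0.59 for mitosis genes and 0.36 for DNA replication genes, against 0.31 for all 4421 tested genes, of which the highest 10% began at 0.64. CCNB2 (0.73), PTTG1 (0.73), CDK1 (0.71), TPX2 (0.71), CDC20 (0.70), TOP2A (0.67), CCNB1 (0.65) and MCM3 (0.65) lay in that highest 10%. MKI67 (0.36) and AURKB (0.35) lay nearer to the median of all genes, and KIF20A (0.15) below it. Genes were not matched for signal, and some of the widest, such as CCNB2, CDC20 and MCM3, had dim probes. Replicate spots within an array gave median SDs of 0.16 to 0.20 over all 50 probes spotted repeatedly and 0.10 to 0.13 over those above background, which cover spot noise but not labelling or differences between arrays.

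The same pigs were high or low for these genes. CDK1 was taken as the anchor after its values had been seen, and 54 probes were related to it over the 16 pigs with permutation tests of 100000 resamples, two-sided and adjusted over the 54. The pigs formed a continuous series in CDK1 and no separate clusters. TOP2A had r = 0.958 (rho = 0.926), PTTG1 0.944 (rho = 0.938), CCNB1 0.939 (rho = 0.95) and AURKA 0.922 (rho = 0.906). The permutation p was 1e-05 for each of these 4, the smallest the resamples could give, and the adjusted p 9e-05. TPX2 followed at 0.914 (rho = 0.862), CCNB2 at 0.905 (rho = 0.921), CDC20 at 0.883 (rho = 0.894) and PLK1 at 0.872 (rho = 0.882), with adjusted permutation p of at most 0.00018 for r. Without the 2 pigs farthest from the median of CDK1, r of these 8 genes was 0.833 to 0.957. These values are for the brightest probe of each gene, and other tested probes followed CDK1 less. The other AURKA probes had r = 0.785 and 0.443 (adjusted permutation p of 0.0012 and 0.17). The second TPX2 probe had 0.701 (adjusted p = 0.0080) and the spelled-out PTTG1 probe 0.671 (adjusted p = 0.014).

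Within the lines the relation held as well. For TOP2A r was 0.962 in the 8 low-RFI and 0.958 in the 8 high-RFI pigs, and for CDC20, the weakest among high-RFI pigs of the 8, it was 0.944 in the low-RFI and 0.772 in the high-RFI line. With each slide centred, r of the 8 genes was 0.891 to 0.959, and within the file numbers 1 to 8 and 55 to 62 it was 0.905 to 0.967 and 0.751 to 0.963. In all, 8 of the 14 other mitosis genes and 0 of the 6 DNA replication genes had r above 0.8, against 0.543% of 4420 genes. The median r was 0.878 for mitosis and 0.286 for DNA replication genes, against 0.027 for all genes. The DNA replication median leaves out the spelled-out probes, at 0.748 for MCM5, 0.730 for MCM4 and 0.137 for CCNE1. The mean deviation of CDK1 and these 8 genes from their own means was −0.95, 0.14, −0.51, 0.71, 0.55, 0.94, 0.25 and 0.64 in low-RFI pigs 1 to 8, against −0.87, −0.83, 0.63, 0.09, 0.65, −0.53, −0.30 and −0.61 in high-RFI pigs 1 to 8. Thus 6 low-RFI and 3 high-RFI pigs lay above 0, and 2 low-RFI and 5 high-RFI pigs below it.

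**Figure D3:**
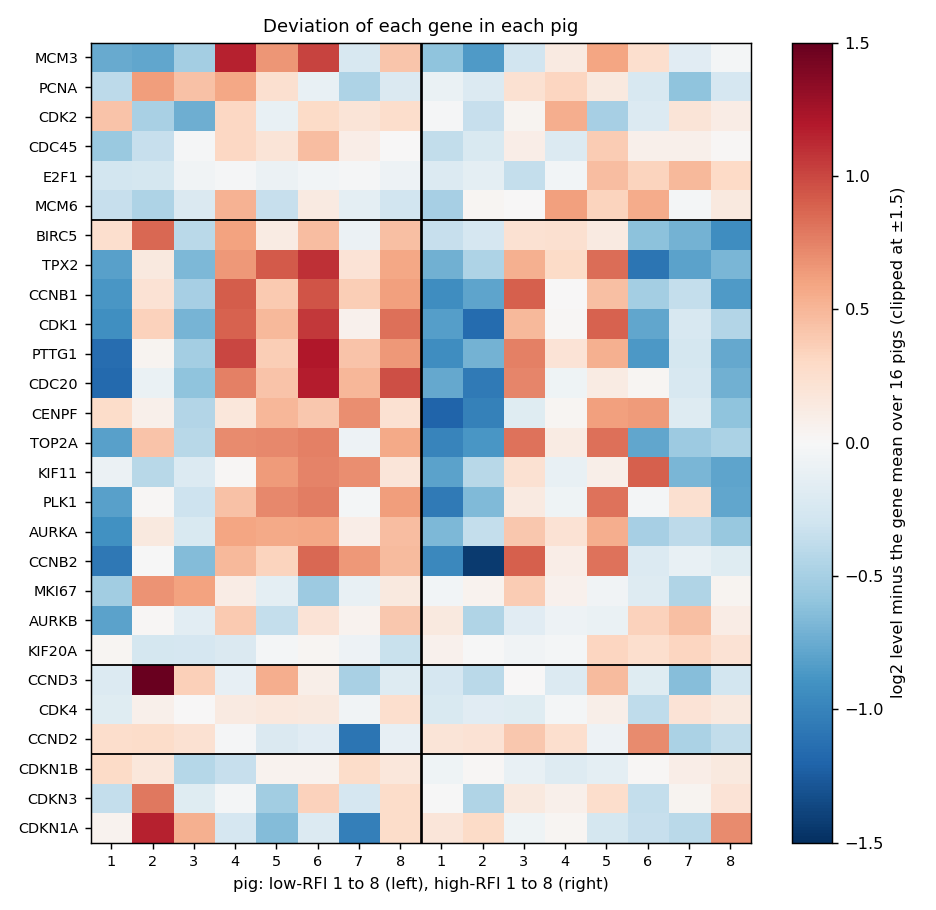
Log2 level of each of the 27 genes in each pig minus the mean of the gene over 16 pigs, low-RFI pigs left of the line and high-RFI pigs right, with genes by role from DNA replication (top) to inhibitors (bottom). Columns of 1 colour run through most mitosis genes, red in low-RFI pigs 4, 5, 6 and 8 and high-RFI pigs 3 and 5. Blue columns are those of low-RFI pigs 1 and 3 and high-RFI pigs 1, 2 and 8. High-RFI pig 6 is blue for CDK1 and TPX2 but red for CENPF and KIF11.

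Other mitosis genes followed CDK1 less. BIRC5 had r = 0.658 (rho = 0.600, adjusted permutation p = 0.015), CENPF 0.559 (rho = 0.447, adjusted p = 0.055) and KIF11 0.420 (rho = 0.503, adjusted p = 0.19). MKI67 showed no relation that passed, with r = 0.057 and 0.091 for its probes and adjusted permutation p of 0.88 and 0.81. KIF20A had r = −0.245 (rho = −0.315, adjusted p = 0.51). For AURKB the probes disagreed: the brightest had r = 0.365 (rho = 0.321, adjusted permutation p = 0.28), while the others had 0.809 (rho = 0.797) and 0.791 (rho = 0.812), with adjusted p of 0.0011 and 0.0022.

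Of the DNA replication genes, MCM3 (r = 0.742, rho = 0.732, adjusted permutation p = 0.0054) and CDC45 (r = 0.685, rho = 0.765, adjusted p = 0.012) followed CDK1, as did the spelled-out probes of MCM5 (0.748) and MCM4 (0.730). PCNA (r = 0.382), CDK2 (0.189), MCM6 (0.171) and E2F1 (0.038) had adjusted permutation p of 0.25 to 0.91. CDK4 had r = 0.645 (rho = 0.603, adjusted p = 0.019), and 0.597 without the 2 farthest pigs, but its second probe had 0.318 (adjusted p = 0.39). CDKN3 had r = 0.536 (adjusted p = 0.067), which was 0.403 without the 2 farthest pigs. The CDKN3 probes ran from 0.101 (adjusted p = 0.80) to 0.630 (adjusted p = 0.025). CDKN1A had r = −0.221 (adjusted p = 0.56).

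**Figure D4:**
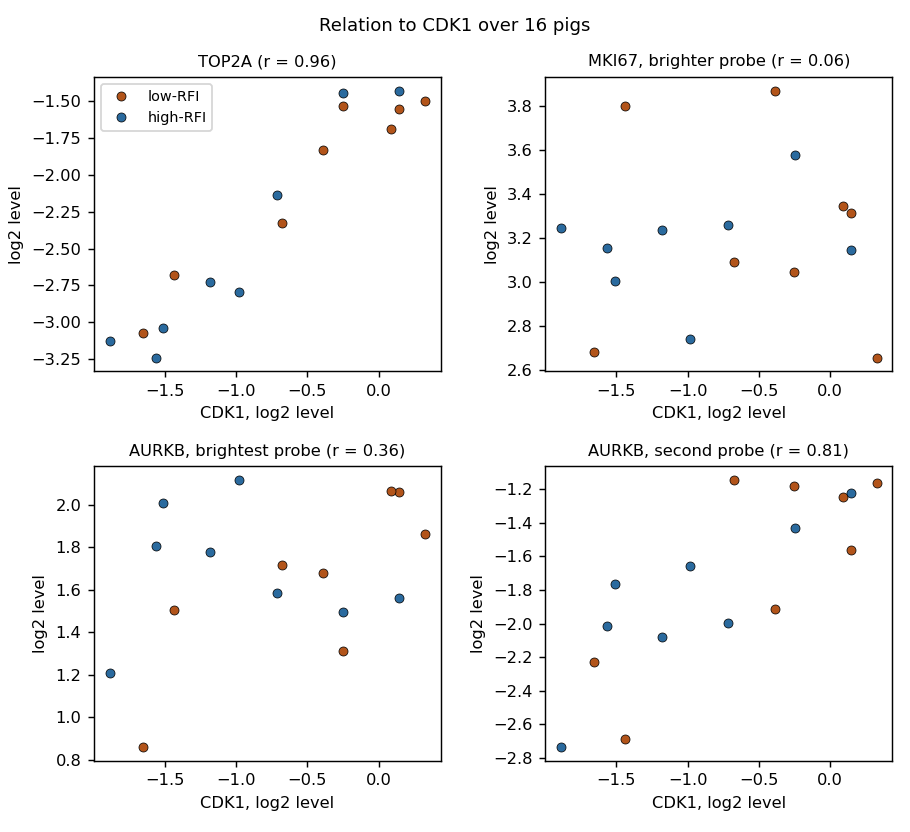
Log2 level of 4 probes against that of CDK1 in 16 pigs, coloured by line. TOP2A (r = 0.96) and the second AURKB probe (r = 0.81) rise with CDK1 in both lines, while MKI67 (r = 0.06) and the brightest AURKB probe (r = 0.36) scatter.

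Array noise was compared because it can set how far dim probes scatter. The median coefficient of variation over 50 probes that are spotted repeatedly was 13.3 ± 0.92% on low-RFI and 12.5 ± 0.92% on high-RFI arrays (SD, n = 8 each), a difference that did not pass an exact two-sided permutation test over 12870 splits (p = 0.0971, or 0.13 within slides). The value that the scanner software itself reports for replicated probes went the other way, 6.97 ± 0.50% on low-RFI and 8.04 ± 0.66% on high-RFI arrays (exact permutation p = 0.00373, or 0.00772 within slides). This value could not be rebuilt from the deposited spots, so the probes behind it are unknown. The software also marked 5 arrays for evaluation, all of high-RFI pigs (1, 2, 3, 6 and 8).

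CDK1 moved with the software's value, with r = −0.663 over 16 pigs (rho = −0.732, permutation p = 0.0064, adjusted p = 0.038 over 6 relations) and −0.525 without the 2 farthest arrays. The relation had the same sign within low-RFI (−0.595) and high-RFI pigs (−0.652) and with slides centred (−0.672). With the recomputed noise r was −0.123 (adjusted permutation p = 0.76). With the software's value as a covariate the median difference turned to −0.16 for mitosis genes and −0.40 for DNA replication genes, and CDK1 to −0.30 (limma adjusted p = 0.917). With the recomputed noise as a covariate the medians were +0.55 and +0.08. Without the 5 marked arrays, which leaves 3 high-RFI pigs, the mitosis median was +0.10, CDK1 was at +0.04, BIRC5 at +0.40 and KIF20A at −0.35. Whether noise has a part in the mitosis difference was not tested.

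**Figure D5:**
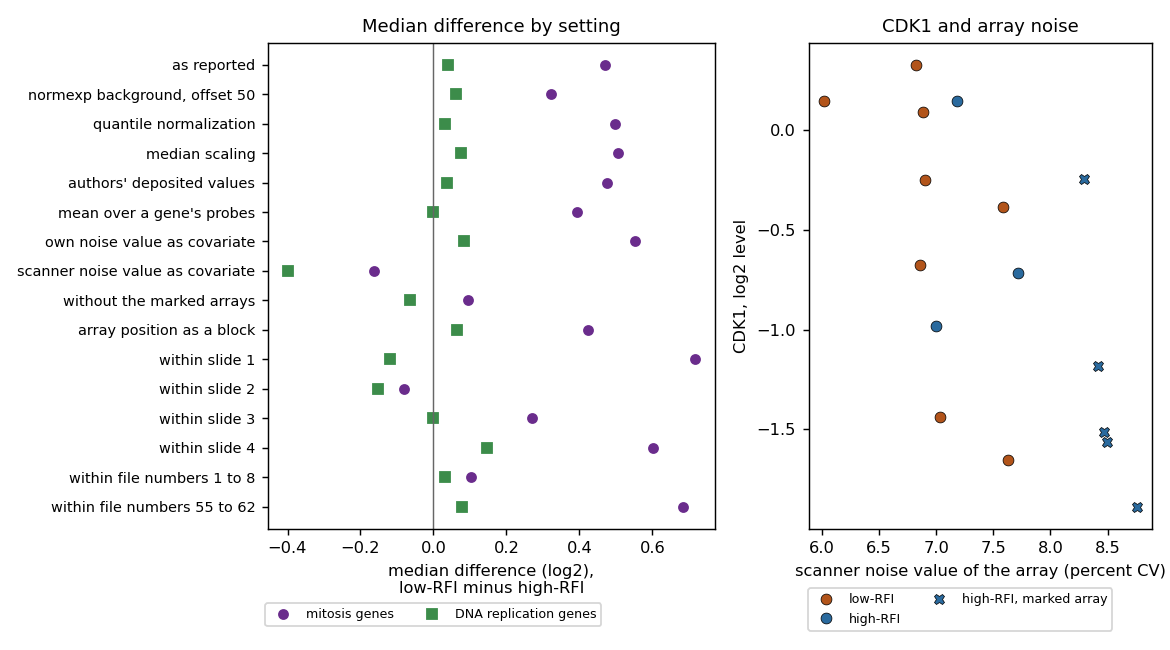
Left, median difference (log2, low-RFI minus high-RFI) of the mitosis and DNA replication genes under each setting; right, CDK1 level of each pig against the noise value of the scanner software, with crosses for arrays the software marked. The mitosis median lies between +0.10 and +0.72 except with that noise value as a covariate (−0.16) and within slide 2 (−0.08), and 4 of the 5 marked arrays lie at the low end of CDK1.

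Within slides 1 to 4, each a comparison of 2 low-RFI with 2 high-RFI pigs, the mitosis median was +0.72, −0.08, +0.27 and +0.60, and the DNA replication median −0.12, −0.15, 0.00 and +0.15. CDC20, KIF11, CENPF and BIRC5 were higher in low-RFI liver on all 4 slides. E2F1 and KIF20A were lower on all 4, E2F1 by only −0.009 on slide 4. The share of all genes with the same sign on all 4 slides was not counted, so these signs are a description. For CDK1 the differences were +1.01, −0.08, +0.29 and +0.83. Thus the size of the mitosis difference depended on which 4 pigs were compared, and slide 2 gave a median of the other sign.

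File names carry numbers 1 to 8 for pigs 1 to 4 of each line and 55 to 62 for pigs 5 to 8, and what the numbers stand for is not stated in any source used here. Within files 1 to 8 the mitosis median was +0.10 and within files 55 to 62 it was +0.68, with 13 of 15 genes higher in both. Within files 1 to 8 CDC20 differed by +0.02 and TPX2 by −0.08, and within files 55 to 62 they differed by +0.97 and +1.13. The interaction of line and file numbers passed limma's test for 0 of 4421 genes and 0 of the 27, with an adjusted p of 0.823 for TPX2. E2F1 is the gene among the 27 whose level differed between the file numbers over all pigs (+0.34, SE 0.079, limma adjusted p = 0.045), a test that 2.15% of genes passed. Its means were −0.79 ± 0.03 in files 55 to 62 and −0.89 ± 0.14 in files 1 to 8 of low-RFI pigs, and −0.34 ± 0.10 in files 55 to 62 and −0.93 ± 0.14 in files 1 to 8 of high-RFI pigs (SD, n = 4 each). The line difference of E2F1 was thus +0.04 within files 1 to 8, against −0.21 over all pigs, and its interaction with file numbers was −0.49 (SE 0.159, limma adjusted p = 0.657).

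Cell cycle genes outside the list were read from 3 more lists. Of the mitotic apparatus (spindle, kinetochore and condensin genes), 12 of 33 were tested and the median was +0.29. In low-RFI liver 11 of the 12 were higher, against 54.7% of all tested genes. In this list NUF2, a kinetochore protein that grips microtubules, was at +0.39 (SE 0.184) and SMC4, a condensin subunit, at +0.29 (SE 0.134), both at an unadjusted p under 0.05 in limma. Of replication initiation and fork genes 8 of 37 were tested, with 3 higher and a median of −0.01, and DBF4, which activates the CDC7 kinase at origins, was at +0.23 (SE 0.103). Of cell cycle control and checkpoint genes 21 of 48 were tested, with 15 higher and a median of +0.05, and MYBL2, a transcription factor of G2/M genes, was at +0.53 (SE 0.252). None passed after adjustment. As in the main list, mitosis genes lay furthest above the +0.02 of all genes. Much of the mitotic apparatus list moved with CDK1 over the same pigs, as did ESPL1 (r = 0.957), KIF4A (0.949), SMC4 (0.848) and NUF2 (0.826). Others, such as CKS1B (0.143) and CEP55 (0.079), did not. The count and median of the mitotic apparatus list are thus no separate support for those of the mitosis list.

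The genes outside the list most like CDK1 over the 16 pigs, among 4420, were ESPL1, separase (r = 0.957), CDCA3, a trigger of mitotic entry (0.951), and the kinesins KIF4A (0.949) and KIFC1 (0.941). CCNF, cyclin F, had 0.933 and SPAG5, a spindle protein, 0.929. Their line differences ran from +0.26 for CDCA3 to +0.49 for CCNF and none passed limma's test. They were chosen for following CDK1, whose own difference is +0.51, over the same pigs, so their sign is no separate support for that of the mitosis list.

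Marker genes of other cells that a piece of liver holds did not pass either. For T and NK cells 8 of 10 markers were tested and 6 were higher in the low-RFI line (median +0.21). The mean deviation of the list ran from −0.71 to 1.43 in the low-RFI line, with a median over pigs of −0.32. In the high-RFI line it ran from −0.57 to 1.15, with a median over pigs of −0.21. The median over pigs was thus not higher in the low-RFI line. For Kupffer cells and macrophages 5 of 9 were tested, of which 2 were higher and 3 lower in the low-RFI line, with a median of −0.13. The mean deviation of this list ran from −0.76 to 0.76 in the low-RFI and from −0.36 to 0.59 in the high-RFI line. Its differences ran from −0.31 to +0.35. The highest was that of CD14, the endotoxin co-receptor (SE 0.124, unadjusted p = 0.0117, adjusted p = 0.708 in limma), against the sign of the list median. The medians were +0.07 for hepatocytes (6 of 8 tested), +0.01 for erythroid cells (3 of 8), −0.03 for B and plasma cells (1 of 7), −0.04 for granulocytes (4 of 6), +0.03 for endothelium (6 of 7), −0.14 for stellate cells (5 of 7) and −0.31 for bile duct (3 of 5). Over the 16 pigs CDK1 had r = 0.25 with CD3E of T cells, −0.139 with ALB, −0.148 with COL1A2 of stellate cells and −0.083 with CD163 of macrophages, each with an adjusted permutation p of 0.76. The part of cell mixture in the pig-to-pig pattern was not tested beyond these genes.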

How the data were processed

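Total RNA from liver of 16 pigs was read on 1-colour arrays. Per the file headers, Agilent Feature Extraction 10.7.3.1 with protocol GE1_107_Sep09 gave a processed signal per spot, a background-corrected intensity on a linear scale that is not scaled between arrays. The deposited series table of the authors holds log2 values of 27938 spots, which equal log2 of that signal minus the median of each array's listed spots. The submitters' processing notes name R 2.10.0.

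Here, outlier spots were dropped from log2 intensity, the 75th percentile of each array was subtracted and spots of a probe were averaged. Probes well above background on at least 8 arrays were fitted with limma 3.58.1 in R 4.3.3 (line as the only term), with Benjamini-Hochberg adjustment over all 30097. A gene was named by its brightest tested probe, and 7 probes that name a member only as the partner or target of another gene were left out. Given in full are the tested genes of G1 and the inhibitors, up to 8 DNA replication and 10 mitosis genes with the smallest p, and probes past the threshold; AURKA, AURKB, CCNB2, MKI67 and PLK1 were added after their values were seen. The members and gene lists were chosen with earlier results of these data known. The fit was checked on simulated data. Relations used SciPy 1.17.1 in Python 3.11.15. Alternatives covered background, scaling, filters, slide, position, noise, file numbers, replicate number and each pig left out.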

Additional observations from a re-analysis of the deposited data

Results flagged for a closer look

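Of 58 groups of 8 pigs examined for a pig far from the others, 1 held such a pig, where chance alone marks about 5% of groups. CCND2, cyclin D2, stood at 0.98 in low-RFI pig 7, the lowest of its line, and the next pig was at 1.86. The gap was 0.637 of the range of the line, above the limit that Dixon's test sets for 8 samples. Without that pig the difference of CCND2 between the lines was nearer to 0, at −0.07, against −0.21 with it.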

How the results depend on the processing

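No member passed at an adjusted p under 0.05 in limma under any alternative, nor at 0.10, and 2 did at an unadjusted p under 0.05. Over all alternatives for the 22 genes given in full, the smallest adjusted p was 0.454. The mitosis median moved to −0.16 with the scanner's noise value as a covariate and −0.081 within slide 2, the DNA replication median to −0.40 with that covariate, and the median of all 27 to −0.12 and −0.068 in those settings. Without 1 pig the mitosis median was 0.34 to 0.56. The DNA replication median was −0.01 (without low-RFI pig 6) to 0.10 (without low-RFI pig 2), and that of all 27 was 0.13 (without low-RFI pig 4) to 0.36 (without low-RFI pig 1). The recomputed noise difference of 0.826 percentage points turned to −0.262 over probes above background and was −1.07 by the scanner's value. It was 0.647 to 1.04 without 1 pig, and passed without low-RFI pig 4 (exact permutation p = 0.0404) or high-RFI pig 3 (0.0407). The scanner's noise value, file numbers and symbol-only naming were alternatives chosen after seeing the data. The cause of these moves was not tested.

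Of 878 values of single genes, 68 changed sign, 20 of them within single slides, where 2 pigs of each line are compared with no test. Within slide 2 these were PTTG1 (−0.297), CDC45 (−0.259), CDKN3 (−0.348), TPX2 (−0.133), CDK1 (−0.081), CCNB1 (−0.068), PCNA (−0.044) and TOP2A (−0.027). The other 12 were CDKN1A, CDK2 and MCM3 within slide 1, CDKN1A, CDK4, CCND2, CDKN1B and CDK2 (−0.593) within slide 3, and CDKN3, CDKN1B, MCM6 and CCND3 within slide 4. With the scanner's noise value the genes that changed sign were CDKN1A (0.462), CDK4 (−0.064), CDKN3 (−0.071), CCND2 (0.129), CDK2 (−0.113), CDC45 (−0.310), PTTG1 (−0.307), CDK1 (−0.295), CCNB1 (−0.124), TPX2 (−0.059), TOP2A (−0.141), MCM3 (−0.553) and CDC20 (−0.162). Without the marked arrays they were CDKN1A (0.196), CDK4 (−0.019), CDKN3 (−0.119), CDK2 (−0.062), CDC45 (−0.063) and MCM3 (−0.065). Within files 1 to 8 they were CDKN1A (0.264), CDK2 (−0.178), E2F1 (0.038) and TPX2 (−0.082), and within files 55 to 62 CDKN3 (−0.073). CDKN3 turned with normexp (−0.055), array position (−0.020) and array weights (−0.023), and CDC45 with array position (−0.031). CDKN1A turned with median scaling (0.0057) and means over probes (0.011), and CDK2 with such means (−0.032). Without 1 pig CDKN1A ranged from −0.196 to 0.114, CDKN3 from −0.091 to 0.096, CDK2 from −0.028 to 0.147 and CDC45 from −0.025 to 0.122. BIRC5, KIF20A, CENPF and KIF11 kept their sign in every alternative run, slides included.

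The labels give both lines replicate numbers 1 to 8. Same-numbered pigs deviated together with r of 0.047 to 0.395, above 0.1 in 6 of 8 numbers, and 5 of 8 were closest to their own number, a possible hint of pairing. These pigs also share their series of file numbers, which was left in the deviations, so a pairing cannot be told apart from it. They were not taken as pairs, since the labels name nothing that a number shares and r was not above 0.1 in every number. With the replicate number as a block 0 members passed. The medians (0.039, 0.469 and 0.238) cannot move in that fit, which holds 1 pig of each line per number, and so say nothing about stability.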
